A study of Mus musculus with 8 samples.

Results

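The connexin genes of mouse primordial germ cells (PGCs) described here are Gja1, Gja4, Gja5, Gjb2, Gjb5 and Gjc1, which are 6 of the 19938 genes with a probe of their own on the array. They were chosen by gene symbol with values of these same arrays in view: the relation of Gja1 to somite number, and the values in mutant and WT embryos. Both sets of values are therefore given as descriptions, with no test of the 6 genes on them. PGCs are the embryonic precursors of eggs and sperm, and at embryonic day 9.5 they migrate from the hindgut toward the gonadal ridges. RNA of PGCs from 8 single embryos was hybridised, 1 array per embryo. The 4 mutant embryos were Ror2Y324C/Y324C, homozygous for an amino acid change in the Wnt5a receptor Ror2, and the 4 WT embryos were Ror2+/+. All embryos were of mixed strain, came from matings of heterozygous mothers with heterozygous fathers homozygous for the Oct4-ΔPE reporter, and gave PGCs sorted by green fluorescence from the trypsin-digested posterior. The mutant embryos 1 to 4 had 24, 22 to 23, 23 and 21 to 22 somites, and the WT embryos 1 to 4 had 25, 25, 22 and 21. The labels do not say which embryos were littermates.

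Connexins are the subunits of gap junctions. A ring of connexins forms a hemichannel in the membrane of a cell, and docking with a hemichannel of the neighbouring cell opens a channel for ions and small metabolites. Gja1 encodes Cx43, the most widespread family member, and mice without it have fewer germ cells in the fetal gonad than normal. Gja4 and Gja5 encode the connexins of arterial endothelium, Gja4 also that of the oocyte. Gjb2 and Gjb5 encode connexins of epithelia, and Gjc1 encodes a connexin of early heart, vessels and many embryonic tissues.

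The RefSeq table of sequences around gene starts (build GRCm38.p6, 250 bases before the start and 50 after it) held 5 of the 6 genes, Gjc1 not among them. The stretches of Gja1 and Gja5 are shown because these genes had the steepest slopes on somite number among the 6. They were searched on both strands for the AP-1 motif TGANTCA, the TCF/LEF motif CTTTGAT, the GC box motif GGGCGG and the TATA box motif TATAAA, and matches are in capitals. Gja1 lies at chr10:56377050-56377349 on the + strand and Gja5 at chr3:97032152-97032451 on the + strand.
Gja1: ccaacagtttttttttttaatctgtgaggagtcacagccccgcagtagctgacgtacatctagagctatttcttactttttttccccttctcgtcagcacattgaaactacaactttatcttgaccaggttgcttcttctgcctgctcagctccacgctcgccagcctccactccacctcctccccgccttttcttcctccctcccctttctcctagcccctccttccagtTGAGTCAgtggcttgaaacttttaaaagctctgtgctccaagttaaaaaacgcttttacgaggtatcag
Gja5: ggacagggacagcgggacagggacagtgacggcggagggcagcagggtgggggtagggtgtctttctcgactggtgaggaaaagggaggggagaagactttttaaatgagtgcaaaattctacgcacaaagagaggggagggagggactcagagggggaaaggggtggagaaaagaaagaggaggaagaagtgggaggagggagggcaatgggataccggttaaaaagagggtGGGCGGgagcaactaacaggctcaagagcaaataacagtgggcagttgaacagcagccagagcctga
In Gja1 the capitals mark an AP-1 match that begins 19 bases before the start, and the other 3 motifs had no match in this window. AP-1 matches stood in 7.81% of the 32851 stretches of the same length. In Gja5 the capitals mark a GC box that begins 17 bases before the start, a motif found in 35.7% of stretches. Gja4 and Gjb2 also held GC boxes (1 and 2 matches). Gjb5 held 1 match to the TATA box letters, a motif present in 13.6% of stretches. It lies on the reverse strand and begins 243 bases before the start. TCF/LEF matches, present in 3.73% of stretches, were found in 0 of the 5 genes. These matches describe letters and not binding. In the same build Gja4 and Gjb5 lie close together on chromosome 4 and Gjb2 lies beside Gja3 and Gjb6 on chromosome 14.

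Values are log2 intensities as the authors deposited them, and precision is limited by the number of arrays. The median over all probes of an array was 5.37 to 5.49 in mutants and 5.39 to 5.58 in WT. WT 3 had the narrowest distribution, with an SD over genes of 1.77, against 1.83 to 1.94 in mutants and 1.82 to 1.95 in the other WT arrays. The germ cell markers Pou5f1 and Dppa3 lay between 10.91 and 11.57 on all 8 arrays. Xist was high on 1 array of each group, at 6.31 in mutant 4 and 7.07 in WT 3, and between 3.50 and 4.11 on the other 6. As no detection call was used here, the 1194 olfactory and vomeronasal receptor genes served as a scale for dim signal: their median ran from 3.51 to 3.78 over the arrays and their 95th percentile from 5.06 to 5.51. Probes differ in their own background, so this scale sets no detection limit. Gja4 and Gjc1 lay above that percentile on 8 of 8 arrays and Gjb5 on 5 of 8. Gja1 lay above it on 1 array, WT 4, and Gja5 and Gjb2 lay above it on 0 of 8.

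Gja1 was lower in embryos with more somites, though only WT 4 lay above the 95th percentile of the dim receptor genes. In mutants 1 to 4 it stood at 4.42, 4.59, 4.56 and 4.86, and in WT 1 to 4 at 3.91, 4.06, 4.99 and 6.02. The WT values enclosed the mutant values, so the groups overlapped. Ordered by somite number, taking the midpoint of a range, Gja1 was 6.02 at 21 somites, 4.86 at 21.5, 4.99 at 22, 4.59 at 22.5, 4.56 at 23, 4.42 at 24, and 3.91 and 4.06 at 25. Each later embryo was thus lower than the one before it, except between 21.5 and 22 somites and within the pair at 25. The slope with genotype in the model was -0.40 ± 0.06 log2 per somite (limma SE). This slope was part of how the genes were chosen. The WT embryo of 21 somites carried much of the drop: without WT 4 the slope was -0.28 ± 0.06.

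**Figure D1:**
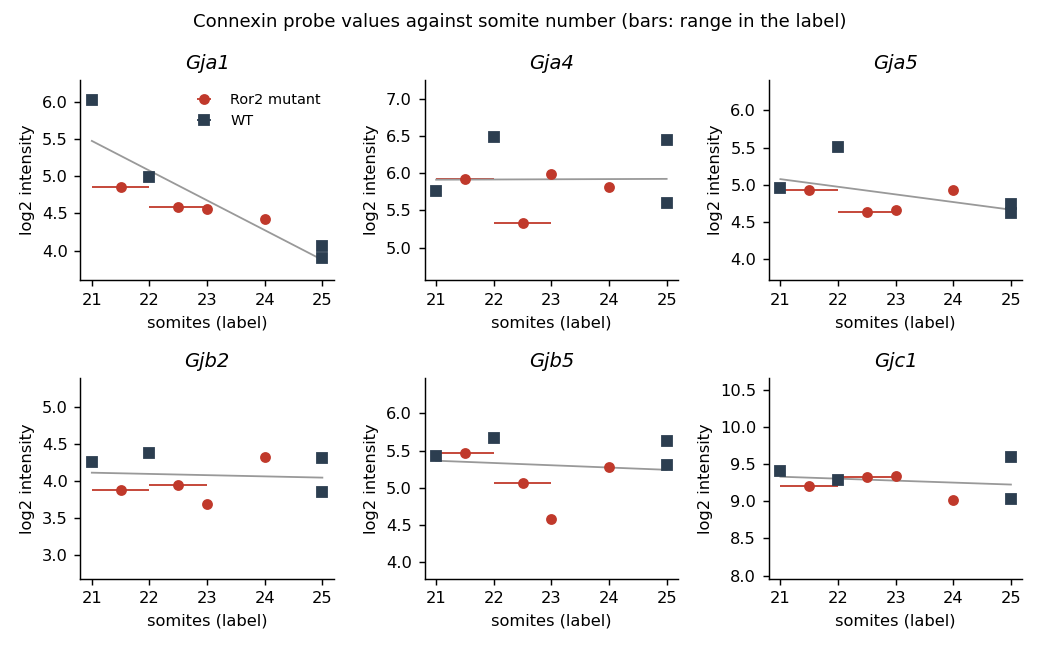
Log2 intensity of the 6 connexins against somite number, mutants as red circles and WT as dark squares, with horizontal bars for label ranges. The grey line is the slope with genotype in the model, drawn through the mean of the 8 arrays. Gja1 falls from 6.02 in the youngest WT embryo to 3.91 and 4.06 in the pair at 25 somites, and the other 5 genes show slopes between -0.10 and 0.00.

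The relation of Gja1 to stage was also set out within each genotype. Among mutants, whose midpoints spanned 2.5 somites, the slope was -0.17 ± 0.10 per somite, and among WT embryos, which spanned 4, it was -0.46 ± 0.07 (limma SE). The difference of these slopes, a contrast not used to choose the genes, was 0.29 ± 0.14 with a 95% interval from -0.03 to 0.61. Its limma p was 0.0693 unadjusted and 0.999 adjusted over all genes. The difference was 0.17 without WT 4, 0.34 without WT 3 (limma p 0.0189 unadjusted, 0.809 adjusted) and 0.46 with the replicate number as a block. For the remaining 5 genes the difference of slopes ran from -0.10 to 0.21, and each limma adjusted p was also 0.999. These values moved with single arrays: without mutant 4 the difference was 0.24 for Gjb5, 0.25 for Gja4, 0.34 for Gja5 and 0.37 for Gjb2. Without mutant 1 it was -0.06 for Gja5, -0.04 for Gjb2, 0.11 for Gjc1 and -0.55 for Gjb5 (limma p 0.0294 unadjusted, 0.842 adjusted). Hence 0 of the 6 genes passed this test, as did 0% of all 19938 genes, and 0 of 6 had an unadjusted p under 0.05, against 4.52% of all genes. These intervals are wide, and they do not show that stage had a like effect in both genotypes.

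Gja5 had the next steepest slope. Its values were 4.93, 4.63, 4.66 and 4.93 in mutants 1 to 4 and 4.74, 4.62, 5.51 and 4.95 in WT 1 to 4. WT 3 stood highest, and the other 7 arrays lay within 4.62 and 4.95. The slope was -0.10 ± 0.06 per somite (limma SE), and it was -0.05 without WT 3 and -0.18 without WT 4. In mutants alone it was 0.00 ± 0.12.

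Gja4 differed more than the other 5 genes between the WT embryos of equal stage. It stood at 5.81, 5.33, 5.99 and 5.92 in mutants 1 to 4 and at 5.60, 6.45, 6.49 and 5.76 in WT 1 to 4. In the WT pair at 25 somites, WT 2 minus WT 1 was 0.86 on the log2 scale. For the other genes it was 0.45 (Gjb2), 0.15 (Gja1), -0.12 (Gja5), -0.32 (Gjb5) and -0.56 (Gjc1). The slope of Gja4 was 0.00 ± 0.09 per somite (limma SE), and its values showed no order by stage.

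Gjb2 and Gjb5, the epithelial connexins, differed little by stage. Gjb2 was at 4.32, 3.94, 3.69 and 3.88 in mutants 1 to 4 and at 3.86, 4.30, 4.37 and 4.25 in WT 1 to 4, with a slope of -0.02 ± 0.06 per somite (limma SE). Gjb5 was at 5.29, 5.06, 4.58 and 5.47 in mutants 1 to 4 and at 5.63, 5.31, 5.67 and 5.42 in WT 1 to 4, with a slope of -0.03 ± 0.07. For both, the lowest array was mutant 3, at 23 somites. Gja4 and Gjb5, which lie close together in the genome, had a correlation of 0.19 over the 8 arrays, given as a description.

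Gjc1 had the smallest range over the arrays of the 6 genes. It was at 9.02, 9.33, 9.34 and 9.20 in mutants 1 to 4 and at 9.59, 9.03, 9.29 and 9.41 in WT 1 to 4. All 8 arrays lay within 0.57 on the log2 scale, against 2.12 for Gja1. Its slope was -0.03 ± 0.05 per somite (limma SE). Since probes differ in brightness, these values do not rank the transcripts by abundance.

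Each of the 6 connexins had a lower mean in mutants than in WT, and in each the groups overlapped. Gjb5 averaged 5.10 ± 0.38 in mutants and 5.51 ± 0.17 in WT (SD, n = 4 each), a difference of -0.41 ± 0.19 (limma SE) or 0.75-fold. Gja4 averaged 5.76 ± 0.30 in mutants and 6.08 ± 0.46 in WT, a difference of -0.31 ± 0.24. Gjb2 averaged 3.96 ± 0.26 in mutants and 4.20 ± 0.23 in WT and differed by -0.24 ± 0.17. These 3 genes kept a negative sign in all 16 alternative settings, but single arrays moved the size. Gjb5 was at -0.23 without mutant 3. Gja4 was at -0.17 without mutant 2, -0.19 without WT 2, -0.18 without WT 3 and -0.47 without WT 1. Gjb2 was at -0.15 without mutant 3 and -0.36 without mutant 1.

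Gja5 averaged 4.79 ± 0.16 in mutants and 4.95 ± 0.39 in WT and differed by -0.17 ± 0.20 (limma SE), which became 0.02 without WT 3 and -0.28 without WT 2. Gja1 averaged 4.61 ± 0.18 in mutants and 4.74 ± 0.98 in WT. Its difference of -0.14 ± 0.39 was -0.34 ± 0.19 with somite number in the model and 0.29 ± 0.25 without WT 4. It was -0.42 without WT 1, -0.37 without WT 2, -0.055 without WT 3, -0.22 without mutant 4 and -0.08 without mutant 1. Gjc1 averaged 9.22 ± 0.15 in mutants and 9.33 ± 0.24 in WT and differed by -0.11 ± 0.15, which was -0.02 without WT 1, -0.04 without mutant 1 and -0.21 without WT 2.

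A lower mean in mutants was also common among genes at large. Over all 19938 genes, 11036 lay below 0 and the median difference was -0.02, and among the receptor genes used as a dim scale 868 of 1194 lay below 0, with a median of -0.08. The median over all genes was 0.01 after quantile normalization and 0.04 after median centring. The median of the 6 connexins was -0.20. After quantile normalization all 6 still lay below 0, Gjb5 at -0.33 ± 0.17, Gja4 at -0.30 ± 0.23 and Gja1 at -0.06 ± 0.39 (limma SE). Of all genes, 0% passed an adjusted p of 0.05 for mutant minus WT, 4.68% had an unadjusted p under 0.05, and 2.52% had groups that did not overlap. Nothing is read from these shares for the 6 connexins, since this contrast was in view when they were chosen. Fewer cells of a type and less RNA per cell cannot be told apart in these sorted pools.

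**Figure D2:**
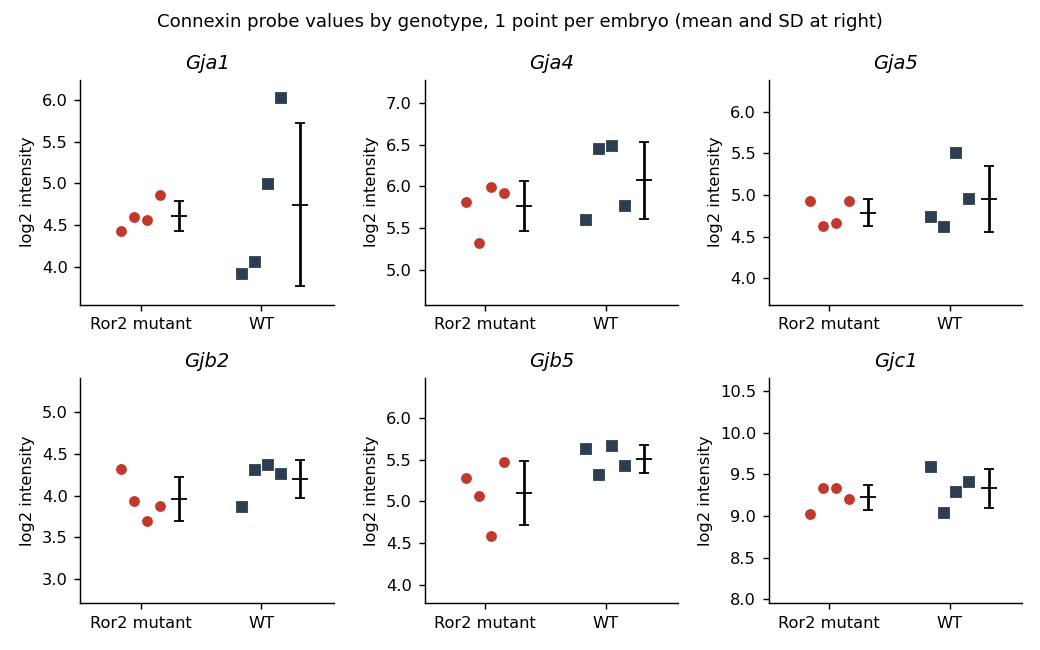
Log2 intensity of the 6 connexins in mutants (red circles, left) and WT (dark squares, right), 1 point per embryo in the order of the embryo numbers, with the mean and SD of each group. The groups overlap in all 6 panels, and Gja1 spreads from 3.91 to 6.02 in WT against 4.42 to 4.86 in mutants.

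Of the other connexins and the pannexins, 13 of 17 listed genes were measured, and the rest were not analysed here. For mutant minus WT, 12 of the 13 lay below 0 with a median of -0.10, and 0 passed in limma, as did 0% of all genes. At an unadjusted limma p under 0.05 the count was also 0, against 4.68% of all genes. The smallest p-values were those of the pannexins Panx2 (-0.26 ± 0.17) and Panx1 (-0.22 ± 0.17), which form channels to the outside of the cell, and of Gja6 (-0.20 ± 0.17), a connexin known from mouse testis. For the slope on somite number, 12 of 13 also lay below 0, with a median of -0.08 per somite. At an unadjusted p under 0.05, 3 of the 13 had a negative slope, against 4.72% of all genes, and 0 passed after adjustment, as did 0% of all genes. The number at an unadjusted p was 0 without WT 1, without mutant 4, in mutants alone and with the replicate block. It was also 0 with Xist as a covariate and without the 2 arrays of high Xist. Among genes above the median level it was 0 too, but that filter left out Gjc3 and other dim genes of the 13. The number was 1 after median centring, in WT alone and without mutant 3, WT 2 or WT 3, and 2 or 3 in the other settings. Gjc3, a glial connexin, had a slope of -0.19 ± 0.08, Gjd3 one of -0.14 ± 0.06 and the lens connexin Gja3 one of -0.10 ± 0.04 (limma SE), with adjusted p-values of 0.486, 0.510 and 0.510. Gjc3 was highest on WT 3, at 5.20, while the other arrays lay between 3.88 and 4.61. Over all genes 11868 of 19938 slopes lay below 0, with a median of -0.02, and over the dim receptor genes 839 of 1194, with a median of -0.03.

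**Figure D3:**
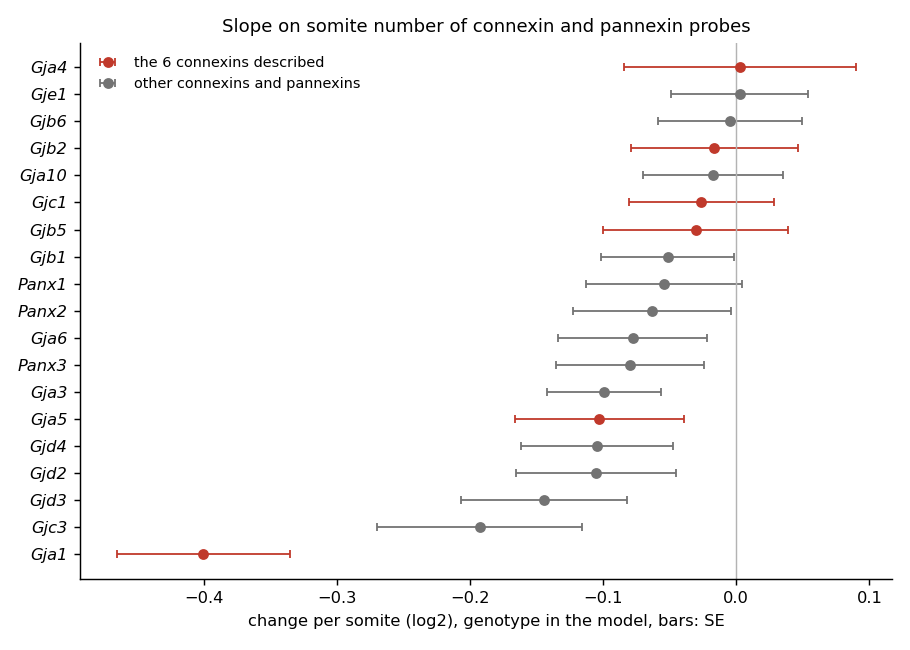
Slope on somite number (log2 per somite, genotype in the model) of the 6 connexins (red) and of 13 other connexins and pannexins (grey), with bars of 1 SE, sorted by slope. Gja1 lies at -0.40, and the next gene, Gjc3, at -0.19.

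**Figure D4:**
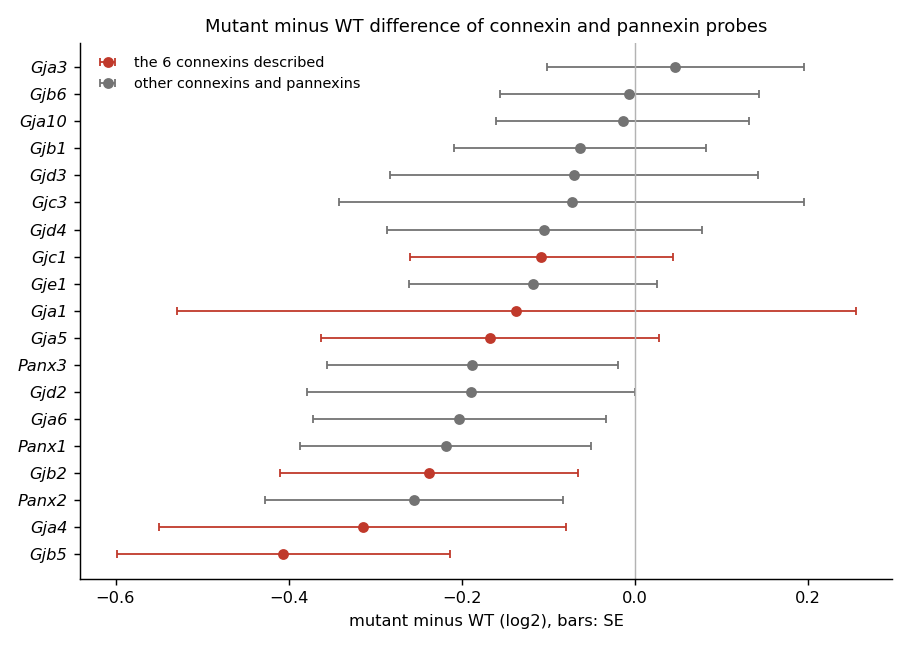
Difference of mutant minus WT (log2) for the same 19 genes, with bars of 1 SE, sorted by size. All but Gja3 lie below 0, and Gja1 has the widest bar, at 0.39.

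Proteins that bind, carry or modify gap junctions were followed as a list of 27 partners, of which 23 were measured. For mutant minus WT, 11 lay above and 12 below 0, with a median of -0.04, and 0 passed in limma, as did 0% of all genes. Smurf2, a ubiquitin ligase reported to act on Cx43, had 7.36, 7.79, 6.88 and 6.90 in mutants 1 to 4 and 6.85, 6.46, 6.14 and 6.32 in WT 1 to 4. Its groups did not overlap, as in 2.52% of all genes, and the difference was 0.79 ± 0.23 (limma adjusted p 0.973). These values come from the brighter of 2 Smurf2 probes. The other probe averaged 5.73 in mutants and 5.87 in WT, a difference of -0.14, and the mean of both probes differed by 0.32 ± 0.21 (limma adjusted p 0.971). The kinases Akt1 (-0.48 ± 0.19) and Mapk7 (-0.41 ± 0.20) followed, both also with an adjusted p of 0.973. For the slope, 13 partners lay above and 10 below 0, and 0 passed, as did 0% of all genes. Drebrin (Dbn1), an actin-binding protein that holds Cx43 at the membrane, had the smallest p, with a slope of -0.17 ± 0.04 and a limma adjusted p of 0.395. Dbn1 stood at 6.23, 6.24, 6.47 and 6.64 in mutants 1 to 4 and at 5.95, 5.82, 6.54 and 6.56 in WT 1 to 4, so that the WT pair at 25 somites was the lowest. Ezrin (Ezr), a linker of membrane and actin, had a slope of 0.16 ± 0.06, and the kinase Csnk1d one of 0.17 ± 0.07, with limma adjusted p-values of 0.475 and 0.494. The slope of Ezr was -0.07 ± 0.11 in mutants and 0.23 ± 0.06 in WT, a difference of -0.30 ± 0.12 (limma p 0.0393 unadjusted, 0.999 adjusted). Ezr was the 1 partner of 23 with an unadjusted limma p under 0.05 for the difference of slopes, against 4.52% of all genes. The scaffold Tjp1 had a slope of 0.07 ± 0.05 and a mutant minus WT difference of -0.05 ± 0.14.

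The genes whose pattern over the 8 arrays was most like that of Gja1 were taken from the 9410 named genes in the brighter part of the table (mean above the middle gene). They were picked for their correlation, which is given as a description. Gas1, a membrane-anchored Hedgehog co-receptor, had a Pearson r of 0.99 and a range of 0.47 on the log2 scale, much narrower than that of Gja1. Trim71, an RNA-binding ubiquitin ligase of early embryonic cells, had an r of 0.97 and ran from 7.98 on WT 1 to 9.58 on WT 4. The galanin receptor Galr3 had an r of 0.96, the laminin chain Lama5 an r of 0.95, and Camk2n1, an inhibitor of a calmodulin-dependent kinase, an r of 0.94. The most opposite patterns were those of Arpc1a, a subunit of the actin-nucleating Arp2/3 complex (r of -0.97), of the RNA-binding protein Pum2 (-0.96), of the kinase Riok1 (-0.96), of the DNA damage kinase Atr (-0.96) and of the decapping factor Lsm1 (-0.95). WT 4 was the highest array for Gja1 and for each of the like genes. It was the lowest for each of the opposite ones, with Arpc1a at 7.10 and Riok1 at 6.01. Each r thus leaned in part on this single array. By rank, which limits the weight of an extreme array, Spearman rho was 0.88 to 0.98 and -0.98 to -0.81. Among the 6 connexins themselves, the correlation with Gja1 ran from -0.02 for Gja4 to 0.45 for Gja5.

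**Figure D5:**
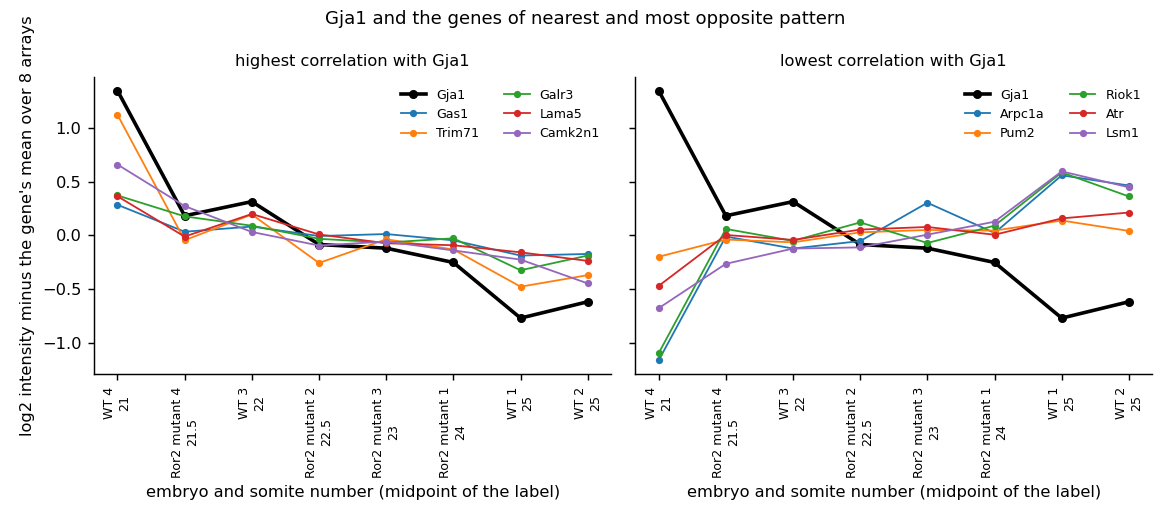
Log2 intensity minus each gene's mean over 8 arrays, for Gja1 (black) and the 5 genes of highest (left) and lowest (right) correlation with it, embryos ordered by somite number. WT 4, at 21 somites, stands apart in most lines, and WT 1 and WT 2, at 25 somites, lie at the other end.

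Levels of markers of cells that could accompany PGCs in the sort are given beside the connexins. In each of these lists 0 markers passed for the slope or for mutant minus WT in limma, as did 0% of all genes. Hindgut endoderm markers (11 measured genes) had 9 slopes below 0 and a median of -0.08 per somite. Their mean level was 6.25, 6.21, 6.32 and 6.54 in mutants 1 to 4 and 6.14, 6.30, 6.40 and 6.61 in WT 1 to 4. Krt18 (9.47), Epcam (9.40), Krt8 (7.87) and Foxa2 (5.74) were highest on WT 4, and the other hindgut markers peaked on other arrays. Krt18 lay between 6.56 and 7.70 away from WT 4. That the list mean was higher on WT 4 than on mutant 4 rested on Krt18. Trap1a was lowest on WT 4 and mutant 4, at 4.72 on each, and Cdx2 was near its lowest on WT 4, at 7.87. The mean levels of surface ectoderm and PGC markers were highest on WT 4, and that of endothelial markers was level on WT 4 (5.495) and WT 3 (5.494). Endothelial markers (12 genes) had 10 slopes below 0 and a median of -0.06, with mean levels of 5.35 to 5.47 in mutants and 5.24 to 5.50 in WT. Arterial markers (8 genes), beside which Gja4 and Gja5 are read, ranged from 5.14 to 5.32 in mutants and from 5.12 to 5.29 in WT. Trunk mesenchyme (11 genes) ranged from 5.09 to 5.21 in mutants and from 4.94 to 5.35 in WT, with 9 slopes below 0 and a median of -0.03. Surface ectoderm (9 genes) ranged from 5.75 to 5.95 in mutants and from 5.75 to 6.02 in WT, neural tube (8 genes) from 5.14 to 5.34 and from 5.17 to 5.34, and neural crest (5 genes) from 5.46 to 5.63 and from 5.45 to 5.71, each in the same order of groups. Primitive erythroid markers (7 genes) ranged from 4.78 to 5.02 in mutants and from 4.80 to 5.46 in WT, and 7 of 7 had a lower mean in mutants, with a median difference of -0.25. Macrophage markers (8 genes) ranged from 4.69 to 4.89 in mutants and from 4.71 to 5.25 in WT, with 7 of 8 lower in mutants. Both lists were highest on WT 3, as were Gja5, the neural crest list and the trunk mesenchyme list. The dim receptor genes were highest on WT 3 too, with a median of 3.78 and a 95th percentile of 5.51. A peak on WT 3 was thus shared with dim probes at large. PGC markers (15 genes) ranged from 10.09 to 10.16 in mutants and from 9.89 to 10.21 in WT, with a median slope of 0.00. The part of these other cells in the connexin values was not tested.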

How the data were processed

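PGC RNA was amplified and labelled with biotin (NuGEN Ovation FFPE WTA and Encore), per the labels' protocols. The authors deposited 1 value per probe and array, taken as log2 intensity from its range. How they corrected, normalized and summarised the scans is not stated in the labels or the table, and the values were used as deposited. Of 35557 probes, 21789 had 1 gene symbol, 1621 had several and 12147 were unnamed here. The probe of highest mean stood for a gene, and each of the 6 connexins had 1 probe.

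All 19938 genes were fitted with limma 3.58.1 in R 4.3.3 (lmFit, eBayes): mutant minus WT without a covariate, the slope per somite with genotype, and the difference of slopes. Benjamini-Hochberg adjustment ran over all genes at a threshold of 0.05, and the scripts were tested on simulated data. Each SD covers the 4 embryos of a genotype, each SE is limma's, and intervals cover 95%. Members and lists were chosen with earlier results of these data known. Of the other connexins and pannexins and of the partners, the 3 genes of smallest p per contrast were named. Tjp1 was named after its values were seen. Genes like or opposite to Gja1 were the 5 of most extreme r per direction, leaving out predicted genes, small RNAs and olfactory and vomeronasal receptors. Sequences and gene order come from RefSeq (GRCm38.p6). Alternatives were 2 normalizations, a level filter, a probe rule, each array left out, the replicate number as a block, covariates for somites and Xist, other readings of somite ranges, each genotype alone, and, added after seeing the data, both arrays of high Xist left out.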

Additional observations from a re-analysis of the deposited data

How the results depend on the processing

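The slope of Gja1 kept its negative sign in 20 of 20 alternative settings, from -0.47 without the 2 arrays of high Xist to -0.17 in mutants alone, and from -0.44 to -0.28 when 1 array was left out. It was -0.38 ± 0.07 after quantile normalization. Slopes of the other 5 genes lay between -0.10 and 0.00 in the main fit, and reached -0.19 for Gja5 and 0.21 for Gja4 with the replicate block. Their sign was kept in 14 (Gja4), 19 (Gja5), 15 (Gjb2), 17 (Gjb5) and 19 (Gjc1) of 20 settings. For mutant minus WT, Gja1 and Gja5 kept their sign in 15 of 16 settings, Gja1 turning to 0.29 without WT 4 and Gja5 to 0.02 without WT 3, and the other 4 genes in 16 of 16. Genes passing for the slope numbered 0, and 1 with Xist as a covariate, 1 with the highest somite number of each range, 5 without the 2 arrays of high Xist, and 0 to 2 with 1 array left out. For mutant minus WT the count stayed at 0 in every alternative run. At an unadjusted limma p under 0.05 it was 729 to 1715 in runs over all genes. It was 538 with the level filter, which tested fewer genes. Replicate numbers share only a number: deviations of same-numbered embryos correlated from -0.19 to 0.10. With the replicate block the Gja1 slope was -0.42 ± 0.16, the counts for mutant minus WT and slope were 0, and that for the difference of slopes was 70, in a fit with 1 residual degree of freedom.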
